A study of Rattus norvegicus with 6 samples.

Results

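The aldo-keto reductases described here are 8 rat genes, Akr1b8, Akr1b1, Akr1b10, Akr1a1, Akr1c14, Akr1e2, Akr7a2 and Akr7a3. They were taken by gene symbol from the array annotation. They are measured by 12 of the 31042 probe sets tested, and 8 of 14217 named genes. The family was selected on the log2 difference between tamoxifen and vehicle arrays, with the Akr1b8 change in view, so the values of its members and their calls in that comparison are a description and not independent evidence. Another 7 genes with an Akr symbol are on the array and are given further on.

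RNA came from primary rat Schwann cells of sciatic nerve, the glia that ensheathe peripheral axons. All cells carried RafER, an inducible Raf allele, in which the kinase is joined to a hormone-binding domain that tamoxifen engages. The RafERtx+ cells received tamoxifen for 24 h (3 arrays) and the RafERtx- cells received the ethanol vehicle (3 arrays), both in minimal medium on coated dishes. The design text calls the 3 experiments independent, while the source labels speak of treated rats. The design text was followed here, and if the replicates were not separate cultures the spread between arrays is partly technical. With no arrays of cells lacking RafER in the comparison, effects of Raf and of the drug cannot be told apart.

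Aldo-keto reductases are mostly monomeric cytosolic enzymes that use NADPH to reduce aldehydes and ketones to alcohols. Their substrates include glucose, steroids, prostaglandins, retinal and the reactive aldehydes made when lipids are oxidised. Aldose reductase, the product of Akr1b1, starts the polyol pathway and has long been studied in peripheral nerve, where it is found in Schwann cells, in connection with diabetic neuropathy. Akr1b8 encodes a related reductase, whose mouse counterpart was described as a protein induced by fibroblast growth factor in fibroblasts.

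After 24 h of tamoxifen 1 member stood far from the others. Akr1b8 was 6.23 ± 0.34 log2 units higher (SE, n = 3 arrays per group), a fold of 75.2 on the linear scale. Akr1b1 rose by 0.46 ± 0.14 at an already high level, a call close to the threshold, and Akr7a2, a reductase of succinic semialdehyde, fell by 0.53 ± 0.11. The brightest probe sets of Akr1b10, Akr1a1, Akr1c14, Akr1e2 and Akr7a3 did not pass. The test was limma's moderated test across all probe sets, with Benjamini-Hochberg adjustment and a threshold of 0.05 on the adjusted p.

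Of the 12 member probe sets, 3 passed as higher, where 11.5% of all probe sets did, and 1 passed as lower, where 12.9% did. By the brightest probe set of each gene, 2 of 8 genes were higher (13.9% of all genes) and 1 was lower (17.3% of all genes). The median difference of the 8 genes was 0.01, and that of all 14217 genes was also 0.01. Values of the tamoxifen and vehicle arrays did not overlap for 3 member probe sets with tamoxifen above (22.2% of all probe sets) and 2 with tamoxifen below (20.2%), where 42.4% of all probe sets did not overlap in either direction. A difference of more than 1 log2 unit was found for 1 of the 12, that of Akr1b8. With the dim probe sets left out, 6 of the 12 remained, the brightest ones of 6 genes. Akr1b10 and Akr1c14 then had none.

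**Figure D1:**
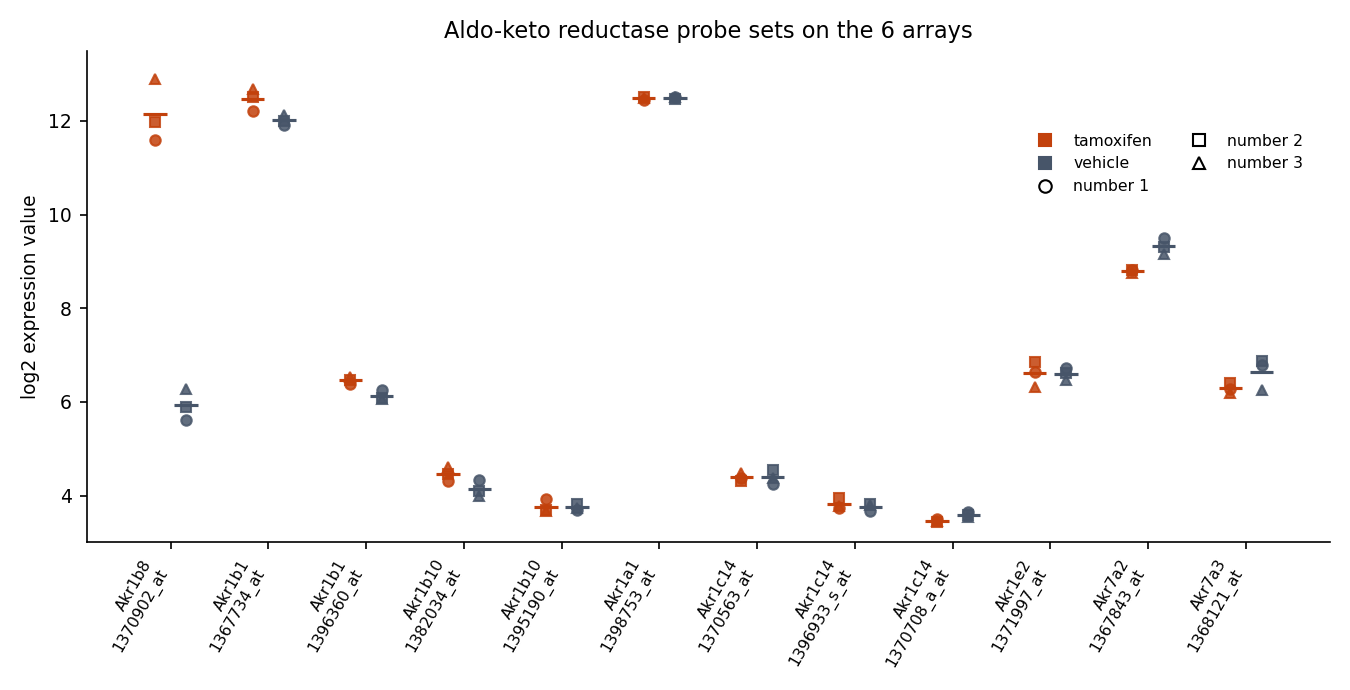
Log2 expression values (vertical axis) of the 12 member probe sets (horizontal axis) on each array, tamoxifen left and vehicle right, with symbols for the number in the sample title and short lines for group means. Akr1b8 is at 11.59 to 12.90 after tamoxifen and at 5.61 to 6.28 in vehicle, while the groups of the other members lie close together.

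The array values are those of RMA, on a log2 scale, and a low value can be background, since no detection calls were given. As context for the treatment, the ERK feedback phosphatase gene Dusp6 rose by 4.53 ± 0.08, the early growth response gene Egr1 rose by 4.51 ± 0.33, and all 13 measured genes of a list of ERK targets passed as higher. Of all genes 13.9% passed as higher and 17.3% as lower. Of 6 measured Schwann markers 4 passed as lower (2 without tamoxifen array 2), Cryab (-2.55), Mbp (-1.96), Ngfr (-1.53) and S100b (-0.76). Mbp, a myelin protein gene, averaged 7.51 ± 0.36 after tamoxifen and 9.47 ± 0.52 in vehicle, and the other 5, with Sox10 and Erbb3, had means of at least 10.15 in both groups. The mean level of that list was 10.10 to 10.75 on the tamoxifen arrays and 11.65 to 11.82 on the vehicle arrays. Of 7 fibroblast markers, 1 passed as higher and 2 as lower (0 and 1 without tamoxifen array 2 or both arrays of number 1). The higher count was 2 with trend and robust in eBayes and 0 without dim probe sets. The mean level of the list was 5.83 to 5.97 after tamoxifen and 6.16 to 6.42 in vehicle. The lower genes were Col1a1 (mean 11.92 after tamoxifen, 13.15 in vehicle) and Col3a1 (6.30 and 8.68). The other fibroblast markers averaged at most 5.43 in either group. None of 7 macrophage, 5 endothelial and 5 smooth muscle and pericyte markers passed (1 of the last list was higher with trend and robust in eBayes and 1 with the mean of each gene's probe sets), with mean levels of 4.64 to 5.61 after tamoxifen and 4.57 to 5.47 in vehicle. The part of these shifts in the results was not tested. In such bulk samples, fewer cells of a type and less RNA per cell cannot be told apart. The vehicle array of number 1 had a mean 3' minus 5' difference of 0.84 log2 units over 3 control transcripts, against 0.16 to 0.27 on the other 5 arrays. Calls that changed without it, among those refitted, are given beside each result. Differences also moved without a change of call, as for Akr1b8 (6.23 to 6.08) and Akr7a2 (-0.53 to -0.44).

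The promoter sequences of Akr1b8, Akr1b10 and Akr7a2 are shown because the first rose most, the second is its next gene on the chromosome and did not pass, and the third fell. Sequences are from RefSeq (GRCr8) and run from 250 bases before the gene start to 50 bases after it. The promoter set used held 7 of the 8 members and lacked Akr1b1. Capitals mark matches on either strand to an AP-1 site (TGACTCA or TGAGTCA), an antioxidant response element (TGACNNNGC or TGAGNNNGC) or an ETS site (CCGGAAG). An AP-1 site followed by GC would match the antioxidant pattern too.
Akr1b8 promoter, chr4:63964171-63964470, + strand: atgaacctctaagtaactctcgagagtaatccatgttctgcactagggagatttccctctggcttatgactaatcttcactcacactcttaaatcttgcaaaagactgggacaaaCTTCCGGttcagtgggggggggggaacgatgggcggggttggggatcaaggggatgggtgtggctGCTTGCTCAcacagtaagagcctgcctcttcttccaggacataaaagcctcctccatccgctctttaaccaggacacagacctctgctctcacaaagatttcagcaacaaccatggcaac
Akr1b10 promoter, chr4:64005382-64005681, + strand: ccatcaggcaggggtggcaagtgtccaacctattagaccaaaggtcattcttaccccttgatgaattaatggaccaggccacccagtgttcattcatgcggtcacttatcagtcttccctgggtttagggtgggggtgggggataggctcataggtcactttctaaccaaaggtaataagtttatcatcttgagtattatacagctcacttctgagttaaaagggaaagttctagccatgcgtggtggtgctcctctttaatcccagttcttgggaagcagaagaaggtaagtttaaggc
Akr7a2 promoter, chr5:156835339-156835638, + strand: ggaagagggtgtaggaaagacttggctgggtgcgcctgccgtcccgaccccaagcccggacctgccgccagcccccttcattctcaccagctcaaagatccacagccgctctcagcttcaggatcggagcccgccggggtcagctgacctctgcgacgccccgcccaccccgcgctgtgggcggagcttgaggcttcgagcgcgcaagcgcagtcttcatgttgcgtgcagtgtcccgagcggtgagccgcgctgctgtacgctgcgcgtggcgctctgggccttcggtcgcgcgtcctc
The Akr1b8 window held 1 match to the ETS pattern, starting at -135 from the gene start, and 1 match to the antioxidant pattern, starting at -70. The ETS pattern was present in 8.75% and the antioxidant pattern in 27.1% of 33469 rat promoter windows of 300 bases. Of the 7 members with a window, 1 held the ETS pattern (Akr1b8) and 2 the antioxidant pattern (Akr1b8 and Akr1a1). The AP-1 letters were in 0 of the 7 windows, against 4.63% of all windows. These matches are letters in a window and say nothing of binding.

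Akr1b8 was measured by 1 probe set. Its log2 values were 11.59, 11.99 and 12.90 on the tamoxifen arrays, against 5.61, 5.89 and 6.28 on the vehicle arrays. All tamoxifen values lay above all vehicle values. Means were 12.16 ± 0.67 after tamoxifen and 5.93 ± 0.33 in vehicle (SD, n = 3 each). The difference of 6.23 has a 95% interval of 5.42 to 7.05, or 42.8-fold to 132-fold. It ranked 1 of 31042 probe sets by size of rise. Arrays of the same number differed by 5.98, 6.10 and 6.62, and within each group the array of number 3 was the highest. Over the 13 alternatives run on this probe set the difference was 5.86 to 6.52, and it passed in 13.

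The 1 probe set for Akr1b8 allows no second reading of this change. RefSeq lists 5 pseudogenes named after Akr1b8 and 5 named after Akr1b1, and Akr1b10 and Akr1b7 are close relatives. Probe sequences were not used here, so how far the probe sets of these genes respond to one another was not tested. The other Akr1b probe sets did not move by a similar amount.

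Of 13983 named genes, the 3 whose 6 array values, each minus the gene's own mean, lay closest to those of Akr1b8 were Gja1, Sdc1 and Mmd. Distances were 1.17 for Gja1 (connexin 43), 1.47 for Sdc1 (the proteoglycan syndecan 1) and 1.69 for Mmd. The likeness rests mainly on the common step between the groups. Gja1 averaged 11.80 ± 0.18 after tamoxifen and 5.75 ± 0.38 in vehicle, a difference of 6.04 ± 0.20, given without a p since the gene was picked for this step. Of its other probe sets, 1 gave 3.62 and 1 gave 0.14. On the tamoxifen arrays Akr1b8 spread from 11.59 to 12.90, while Mmd was at 13.46 to 13.69.

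**Figure D2:**
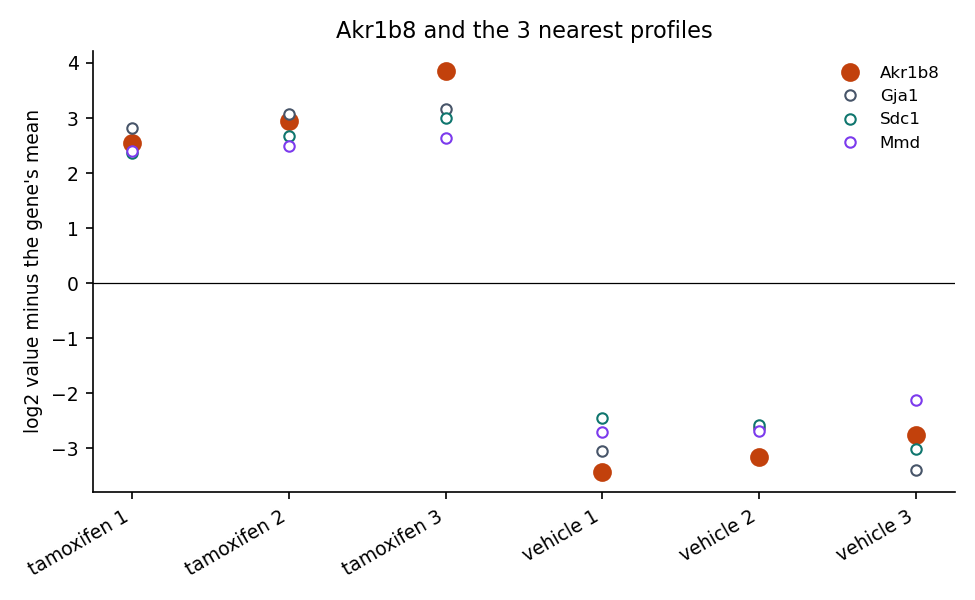
Log2 value minus the mean of each gene (vertical axis) on the 3 tamoxifen and 3 vehicle arrays (horizontal axis) for Akr1b8, drawn filled, and the 3 genes nearest to it, drawn open. All 4 genes are above 0 on every tamoxifen array and below 0 on every vehicle array.

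Akr1b1, aldose reductase, reduces glucose to sorbitol. Its brighter probe set read 12.22, 12.52 and 12.68 on the tamoxifen arrays, against 11.92, 12.00 and 12.12 on the vehicle arrays. The groups did not overlap, but the lowest tamoxifen value lay only just above the highest vehicle value. Means were 12.48 ± 0.23 after tamoxifen and 12.01 ± 0.10 in vehicle, and the fold was 1.38. The dimmer probe set read 6.39, 6.47 and 6.54 after tamoxifen, against 6.26, 6.08 and 6.05 in vehicle, with a difference of 0.34 ± 0.10. Here too the groups were apart. Both calls are near the threshold. The brighter probe set did not pass without tamoxifen array 2 (0.44) or 3 (0.36) or vehicle array 1 (0.42), 2 (0.46) or 3 (0.52), with quantile normalization (0.44) or with median centring (0.43). It passed in 6 of 13 alternatives, among them the replicate number as a block (0.46 ± 0.10). The mean of both probe sets also passed (0.40 ± 0.10). The dimmer one passed in 3 of 12 alternatives, and not with the replicate number as a block (0.34 ± 0.11). Its difference stayed between 0.30 and 0.44.

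The enzyme that takes the product of aldose reductase further showed a much larger change. Sord, sorbitol dehydrogenase, which turns sorbitol into fructose, fell to 6.60 ± 0.12 after tamoxifen, against 9.34 ± 0.12 in vehicle, a difference of -2.74 ± 0.11 (limma, adjusted p = 5.45e-05). Its other probe set gave -2.60. Of 10 measured genes of the polyol pathway and the osmotic response, 2 passed as higher and 2 as lower. Among all genes the shares were 13.9% and 17.3%. Slc5a3, the myo-inositol transporter, showed -0.09 ± 0.18 (adjusted p = 0.778). Sgk1, a kinase induced by salt and hormones, rose by 1.63 ± 0.22 (adjusted p = 0.00348). The number of higher genes in this list was 1 without tamoxifen array 1 or 3 or vehicle array 2 or 3, and without both arrays of number 1.

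Akr1b10, whose human namesake is best known for reducing retinal, read low on its 2 probe sets. The brighter one gave 4.32, 4.46 and 4.62 on the tamoxifen arrays, against 4.33, 4.09 and 3.99 on the vehicle arrays. The groups overlapped through array 1 of each. The difference was 0.33 ± 0.13, with a 95% interval of 0.03 to 0.63, and it passed without vehicle array 1 (0.43) and without both arrays of number 1 (0.50). The other probe set read 3.68 to 3.92 after tamoxifen and 3.69 to 3.82 in vehicle, a difference of 0.02 ± 0.10. The 2 probe sets thus differ, and at these levels values may be background.

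RefSeq places Akr1b1, Akr1b8, Akr1b10 and Akr1b7 next to each other in this order on rat chromosome 4. Akr1b7, not among the 8, encodes a reductase first found in mouse vas deferens. It read 4.81, 4.88 and 4.70 after tamoxifen, against 6.66, 6.55 and 5.03 in vehicle. Vehicle array 3 sat close to the tamoxifen arrays, although the groups did not overlap. The difference of -1.28 ± 0.41 did not pass (limma, adjusted p = 0.0667). It passed with the replicate number as a block (adjusted p = 0.0356) and without vehicle array 3 (-1.80, adjusted p = 0.000816), within a range of 0.000816 to 0.241 over its alternatives.

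Of the 16 protein-coding genes nearest to Akr1b8, 8 on each side, 12 were measured, a set chosen after the data were seen. Akr1b1 was the only one of these that passed as higher, and 3 passed as lower, where 31.2% of all genes passed in either direction. The lower ones were Plxna4 (-1.50 ± 0.20, adjusted p = 0.00323), Bpgm (-0.66 ± 0.12, adjusted p = 0.00880) and Tmem140 (-3.02 ± 0.31, adjusted p = 0.00129). The differences of the 12 ran from -3.02 for Tmem140 to 0.51 for Chchd3, against 6.23 for Akr1b8.

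**Figure D3:**
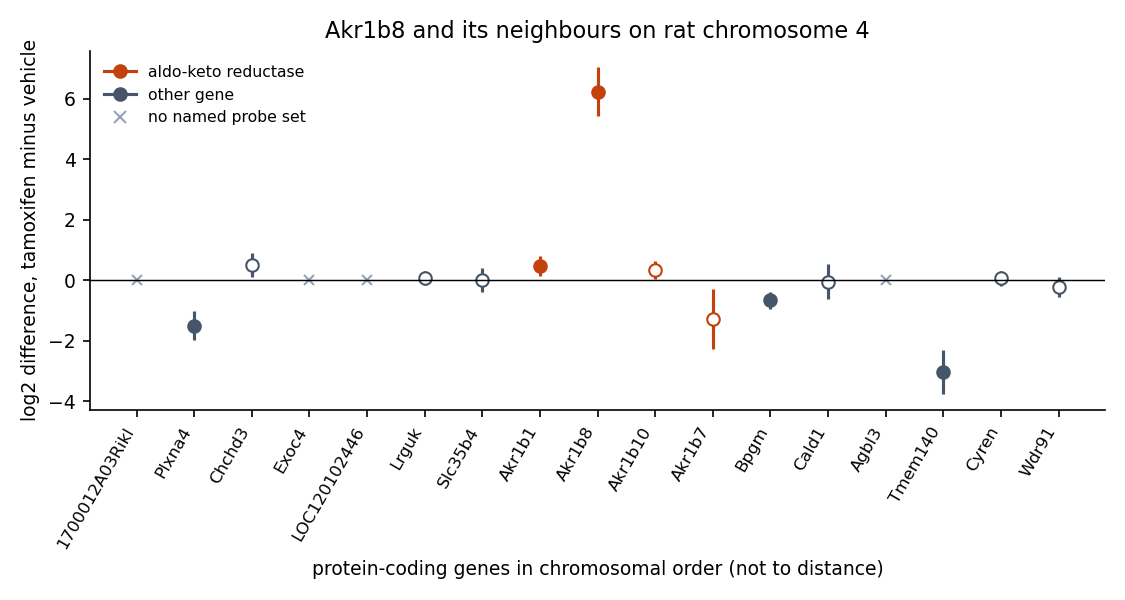
Log2 difference, tamoxifen minus vehicle (vertical axis), with 95% intervals, for Akr1b8 and the 8 protein-coding genes on each side in RefSeq order (horizontal axis, not to distance). Filled points passed the threshold, open points did not, and crosses are genes without a named probe set. Akr1b8 is at 6.23 and its direct neighbours Akr1b1 and Akr1b10 are at 0.46 and 0.33.

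Akr1a1, aldehyde reductase, turns glucuronate into gulonate on the way to ascorbate in rodents. It was bright and nearly equal on all arrays, at 12.44, 12.50 and 12.50 after tamoxifen, against 12.51, 12.47 and 12.52 in vehicle. The groups overlapped. The difference was -0.02 ± 0.08, and its 95% interval of -0.20 to 0.16 leaves room for a fold of 0.870 to 1.12. Of 10 genes of the glucuronate and ascorbate pathway, 1 passed as higher and 2 as lower (13.9% and 17.3% of all genes). Ugdh, which makes UDP-glucuronate, fell by 0.87 ± 0.11 (limma, adjusted p = 0.00301). The ascorbate transporter gene Slc23a2 rose by 0.83 ± 0.24 (adjusted p = 0.0469), a call lost without any of the tamoxifen arrays 1 (0.73), 2 (0.95) and 3 (0.81), without vehicle array 2 (0.81) or 3 (0.61), and with median centring (0.79). Its other probe set rose by 1.31 ± 0.30 (adjusted p = 0.0217). Under each of the alternatives that lost the call, 0 genes of the list were higher. Without both arrays of number 1 there were 2 higher and 1 lower, and 1 was lower without tamoxifen array 2.

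Akr1c14 encodes the rat hydroxysteroid dehydrogenase that forms neuroactive reduced progestins. Its 3 probe sets read between 3.44 and 4.48 after tamoxifen and between 3.55 and 4.56 in vehicle, levels that may be background. The brightest gave 4.39, 4.31 and 4.48 after tamoxifen, against 4.26, 4.56 and 4.37 in vehicle, a difference of 0.00 ± 0.11. The groups overlapped. A second probe set, which may match several transcripts, differed by 0.06 ± 0.10. The third showed groups that did not overlap, 3.50, 3.44 and 3.47 after tamoxifen against 3.64, 3.59 and 3.55 in vehicle, but its difference of -0.13 ± 0.08 did not pass.

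Steroid synthesis upstream of Akr1c14 included the largest fall of all 31042 probe sets. Star, which carries cholesterol into mitochondria, averaged 5.59 ± 0.19 after tamoxifen and 10.72 ± 0.50 in vehicle, a difference of -5.13 ± 0.25 (limma, adjusted p = 0.00013). Of 25 measured genes of steroid synthesis and conversion, 2 passed as higher and 6 as lower (13.9% and 17.3% of all genes). Sts, steroid sulfatase, fell by 1.77 ± 0.15 (adjusted p = 0.000696). Srd5a1, whose product feeds Akr1c14, had no probe set with its symbol alone in the annotation used, so no value is given.

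Akr1e2 is known for reducing anhydrofructose. It read 6.65, 6.86 and 6.33 on the tamoxifen arrays, against 6.72, 6.62 and 6.46 on the vehicle arrays. The groups overlapped. The difference was 0.01 ± 0.15, with a 95% interval of -0.35 to 0.38.

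The 2 members of the Akr7 branch both had negative differences. Akr7a2 read 8.82, 8.82 and 8.74 after tamoxifen, against 9.50, 9.30 and 9.17 in vehicle, and all tamoxifen values were below all vehicle values. Means were 8.80 ± 0.04 after tamoxifen and 9.32 ± 0.17 in vehicle, a difference of -0.53 with a 95% interval of -0.78 to -0.27. The vehicle array of number 1 was the highest. The call held in 12 of 13 alternatives and was lost without both arrays of number 1 (-0.45 ± 0.11).

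Akr7a3, the rat aflatoxin aldehyde reductase, an enzyme that antioxidants induce in rat liver, read 6.28, 6.41 and 6.19 after tamoxifen, against 6.80, 6.88 and 6.26 in vehicle. The groups overlapped through vehicle array 3. The difference was -0.35 ± 0.17 and did not pass. Without vehicle array 3 it was -0.54 ± 0.11 and passed. Vehicle array 3 was thus the nearest to the tamoxifen arrays for Akr7a2, Akr7a3 and Akr1b7.

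**Figure D4:**
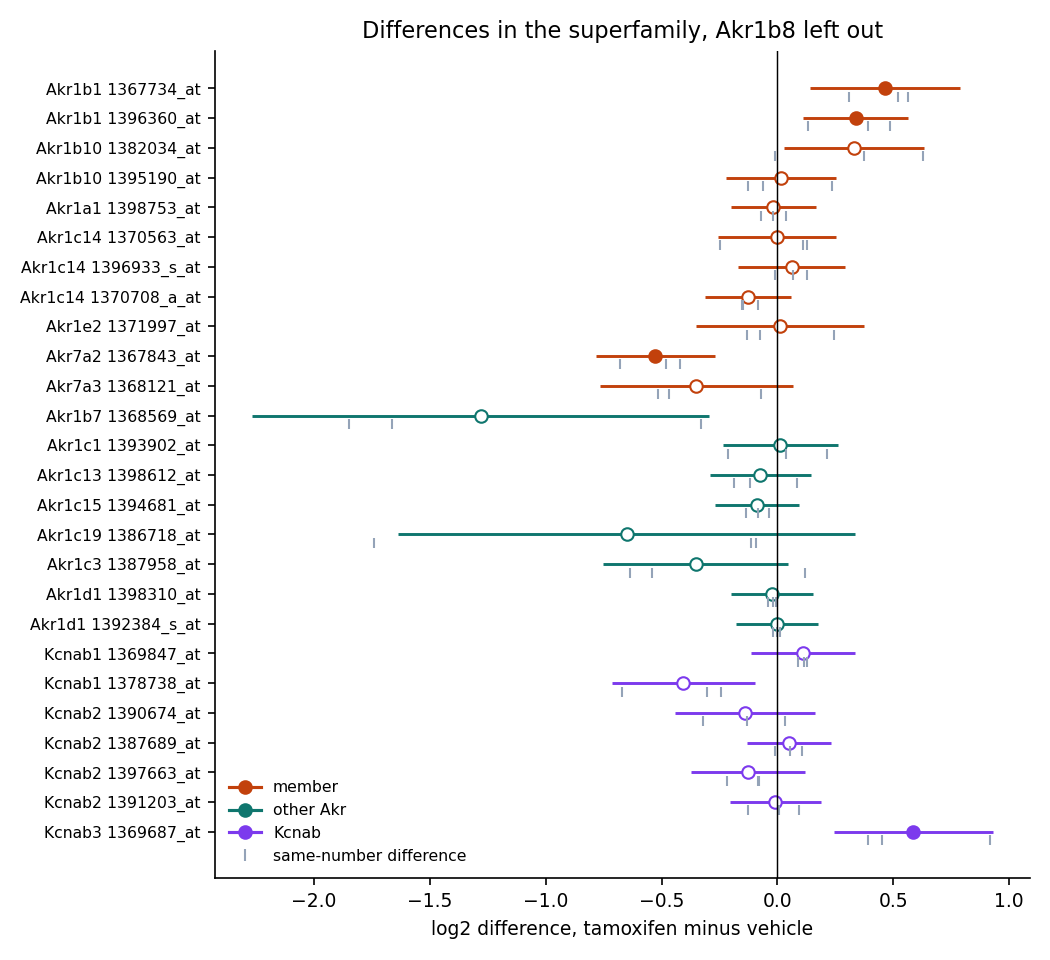
Log2 difference, tamoxifen minus vehicle (horizontal axis), with 95% intervals, for 11 member probe sets other than that of Akr1b8, 8 of other Akr genes and 7 of Kcnab genes. Filled points passed the threshold, open points did not, and grey ticks are differences between arrays of the same number. The 3 filled member points are those of Akr1b1 at 0.46 and 0.34 and Akr7a2 at -0.53.

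None of the 8 probe sets of the other 7 Akr genes passed, where 24.4% of all probe sets passed in either direction. Besides Akr1b7 these were Akr1c1, Akr1c3, Akr1c13, Akr1c15, Akr1c19 and Akr1d1. Akr1c19 read 5.32, 5.45 and 5.32 after tamoxifen, against 5.41, 5.57 and 7.06 in vehicle, so that vehicle array 3 stood apart. Its difference was -0.65 ± 0.41 (limma, adjusted p = 0.319). Akr1c3 differed by -0.35 ± 0.17 (adjusted p = 0.183) and passed without vehicle array 2 (adjusted p = 0.0475, within 0.0475 to 0.488 over its alternatives). The others differed by -0.09 to 0.01. Kcnab proteins, the potassium channel beta subunits of the same superfamily, gave 1 call in 7 probe sets. Kcnab3 rose by 0.59 ± 0.14 at a low level of 5.33 ± 0.27 after tamoxifen and 4.74 ± 0.06 in vehicle (adjusted p = 0.0267). This call was lost without vehicle array 2 (0.56) or 3 (0.58) and without both arrays of number 1 (0.68). The 4 probe sets of Kcnab2 differed by -0.14 to 0.05. Those of Kcnab1 differed by 0.11 ± 0.09 and -0.41 ± 0.13 (adjusted p = 0.466 and 0.0650), and the second passed as lower only with trend and robust in eBayes (adjusted p = 0.0346).

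Other lists of aldehyde and carbonyl enzymes moved in both directions. For comparison, 13.9% of all genes passed as higher and 17.3% as lower. Not all of their enzymes share substrates with aldo-keto reductases. Of 17 aldehyde dehydrogenases 3 passed as higher and 5 as lower (3 without tamoxifen array 2 or 3). Aldh1a3, which makes retinoic acid from the retinal that reductases remove, averaged 9.14 ± 0.54 after tamoxifen and 4.56 ± 0.30 in vehicle, a difference of 4.58 ± 0.29 (limma, adjusted p = 0.000292). Aldh6a1 fell by 1.48 ± 0.18. A list of short-chain carbonyl reductases and alcohol dehydrogenases also held some other reductases. Of its 20 genes 1 passed as higher, the carbonyl reductase gene Cbr3 (1.70 ± 0.20). Lower were 8, among them Cbr4 (-1.59 ± 0.25) and some of the other reductases. The lower count was 4 without tamoxifen array 1, vehicle array 2 or both arrays of number 1, and 3 without tamoxifen array 3. The higher count was 2 without tamoxifen array 1, with quantile normalization and with the mean of each gene's probe sets. Of 11 glyoxalase and aldehyde conjugation genes 1 passed as higher and 4 as lower, Gsta4 (-1.66 ± 0.22) and Fn3krp (-1.37 ± 0.21) by the most, and 2 were higher with quantile normalization.

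Several aldo-keto reductases belong to the genes that NRF2, the oxidative stress factor, is known to induce. For the counts that follow, 13.9% of all genes passed as higher and 17.3% as lower. Of 19 measured NRF2 targets and regulators, 8 passed as higher and 5 as lower, with a median difference of 0.82 against 0.01 for all genes. Without both arrays of number 1 the lower ones were 3. Among the higher genes is Nfe2l2 (0.98), which encodes NRF2 itself. Among the lower genes are the targets Mgst1 (-1.09) and Abcc4 (-1.04), and Keap1 (-0.68), which encodes the inhibitor of NRF2. The part of NRF2 in these changes was not tested. The other Keap1 probe set gave -0.55 and did not pass. Hmox1, heme oxygenase, rose by 1.67 ± 0.15. Gclc, the catalytic subunit of the ligase that starts glutathione synthesis, rose by 2.04 ± 0.19. Gclm, its modifier subunit, showed -0.55 ± 0.17 (limma, adjusted p = 0.0564). Gclm passed as lower in 4 of 13 alternatives, with the replicate number as a block (adjusted p = 0.0112), without vehicle array 3, with median centring and without dim probe sets, within 0.0112 to 0.154 over all of them. Nqo1 showed 0.82 ± 0.43 (adjusted p = 0.225). Its vehicle arrays read 10.88, 11.84 and 12.73, the first being the array with the large 3' minus 5' difference. Over its 12 alternatives the difference ran from 0.35 to 1.28. It passed in 1 of them, without vehicle array 3 (1.28, adjusted p = 0.0299), within 0.0299 to 0.423 over all of them. Ugdh and Gsta4, named above among the lower genes of other lists, are also in this one. A list for NADPH supply held 14 measured genes, not all of which make NADPH itself. Of these, 5 passed as higher and 3 as lower, Mthfd2 (2.35 ± 0.23) and Nadk2 (-1.87 ± 0.28) by the most. The higher count was 3 without tamoxifen array 2 or 3, without vehicle array 1, and without both arrays of number 1.

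Prostaglandin synthesis is another pathway that some aldo-keto reductases serve, as makers of prostaglandin F. Of 18 genes 4 passed as higher and 1 as lower (13.9% and 17.3% of all genes). Ptgs1, cyclooxygenase 1, averaged 8.37 ± 0.28 after tamoxifen and 5.19 ± 0.11 in vehicle, a difference of 3.18 ± 0.15 (limma, adjusted p = 0.000125), and its other probe set gave 0.26, which did not pass (adjusted p = 0.108). The thromboxane synthase gene Tbxas1 rose by 1.02 ± 0.22, which did not pass without tamoxifen array 2 (0.99). Ptgs2 was low in both groups and differed by 0.04 ± 0.08 (adjusted p = 0.800). Without tamoxifen array 2 the higher genes were 2, and the lower gene was lost without tamoxifen array 1 or 2, vehicle array 2, or both arrays of number 1 (0 lower).

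**Figure D5:**
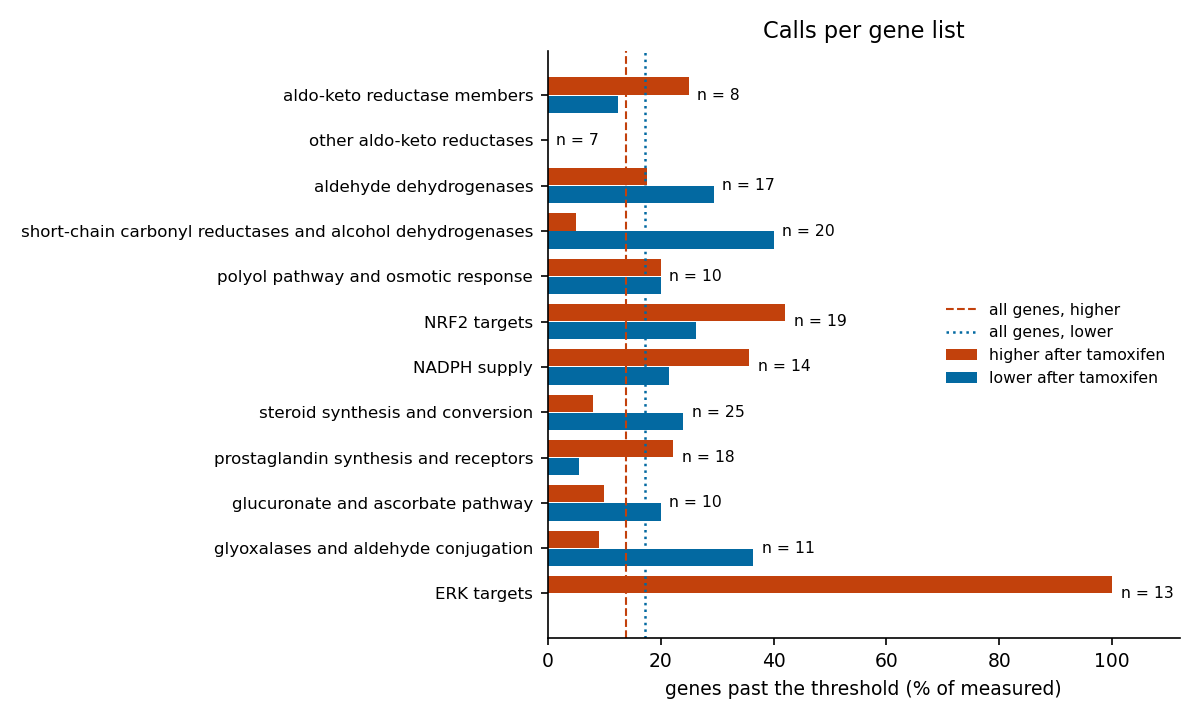
Percent of the measured genes of each list that passed as higher (orange) or lower (blue) after tamoxifen, with the shares of all genes as vertical lines (13.9% higher, 17.3% lower) and the number measured beside each bar. The aldo-keto reductases have 2 of 8 higher and 1 of 8 lower, the NRF2 list, which includes Nfe2l2 and Keap1, 8 and 5 of 19.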

How the data were processed

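The authors deposited one log2 value per probe set and array. The submitters' processing notes name RMA, a method of background correction, between-array normalization and probe summary, without a version. The labels' protocols give a Qiagen RNeasy Plus extraction of total RNA. Values ran from 2.99 to 14.58, and the number of arrays limits the precision. Differences of dim genes on this scale can be too small.

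Of 31099 probe sets, 57 manufacturer controls were left out and 31042 were tested. Of these, 20826 had 1 gene symbol, 436 had more than 1, and 9780 had none in the annotation used. The Entrez identifiers of the 8 members matched RefSeq (GRCr8) with the same symbol. Each gene is counted by its brightest probe set, by the mean over the 6 arrays. Where levels of different probe sets stand side by side they are only a rough guide, since probes differ in brightness.

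Groups came from the sample titles. Tamoxifen was compared with vehicle in limma 3.58.1 (lmFit, eBayes), run under R 4.3.3 (two-sided, Benjamini-Hochberg over all 31042 probe sets, threshold 0.05), without covariates. Each difference is tamoxifen minus vehicle, its error is the model's standard error, and intervals are at 95%. An exact permutation test was not used, as 3 against 3 arrays cannot pass. The procedure was tested on simulated data, but these had far fewer changed probe sets and no correlation between arrays of the same number. That test therefore does not give the error rates for these arrays.

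Members and lists were chosen with earlier results of these data known. There are 10 comparison lists and 5 marker lists. The text names all member probe sets, the other Akr and Kcnab genes, 7 fixed genes (Nqo1, Gclm, Sord, Slc5a3, Star, Srd5a1 and Ptgs2), the 3 profiles nearest to Akr1b8 by Euclidean distance, and the largest changes of each list past the threshold without overlap of groups. The rule allowed up to 4 such genes per list, and the first 2 were used. Nfe2l2 and Keap1 are named besides, as the regulators in the NRF2 list, and Mgst1 and Abcc4 as lower targets in it. Neighbouring genes were added after seeing the data.

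Titles share numbers 1 to 3 between groups. After subtraction of group means, arrays of the same number correlated at 0.26, 0.20 and 0.28 over all probe sets. Same-number differences are given on that basis, not from the labels, but the main fit left the pairing out. Subtraction itself pushes the other correlations below 0. The fit with the number as a block was an alternative, and gave Akr1b8 a standard error of 0.15 in place of 0.34. Others were leaving out each array, quantile normalization, median centring, leaving out probe sets with a mean below 6.37 (the median of all), eBayes with trend and robust, removing possibly cross-matching probe sets (suffix _s_at, _x_at or _a_at), and averaging all probe sets of each gene. Leaving out both arrays of number 1 was added after seeing the data.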

Additional observations from a re-analysis of the deposited data

How the results depend on the processing

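Over 148 alternative fits of single member probe sets, 128 kept their side of the threshold, 17 lost a call, 3 gained one and 0 passed in the opposite direction. The sign differed in 16 of the 128, on 5 probe sets that did not pass (of Akr1b10, Akr1a1, Akr1c14 and Akr1e2). The Akr1b8 call was in none of the lost ones. Of the 3 member probe sets higher, 1 was left with quantile normalization and 1 with median centring, and the brightest probe sets gave 1 gene higher under each, in place of 2. Without both arrays of number 1, 0 member probe sets and 0 member genes were lower. Leaving out 1 array gave 1 to 3 member probe sets and 1 to 2 member genes higher, and 1 to 2 probe sets and 1 to 2 genes lower. Over all probe sets it gave 2427 to 3424 higher and 2668 to 3771 lower, the last count being 2668 without tamoxifen array 2, in place of 4004. In the comparison lists together it gave 30 to 39 genes higher and 23 to 32 lower, in place of 38 and 34. With fewer arrays the test has less power. With the replicate block, 2 member probe sets were higher and 1 was lower, and 3675 and 4584 of all probe sets. Among the Akr, Kcnab and named comparison list genes that were refitted, the block changed 3 calls. These were those of the dimmer Akr1b1 probe set, Akr1b7 and Gclm. Egr1, Nfe2l2, Keap1, Mgst1, Abcc4, the markers and Chchd3 were not refitted one by one. Scaling moved the median difference of all probe sets only slightly (0.03 as deposited, -0.01 with median centring). Both Akr1b1 calls were lost even so, with median centring and with quantile normalization. Akr1b10 and Akr1c14 have no probe set above the dim filter, so no value exists for them under it.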
